A study of Carica papaya with 55 samples.

Results

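Stamens of papaya (Carica papaya) male flower buds were compared at 2 sizes before meiosis. The 3 libraries labelled stamen S3 (buds of 4.5 to 6.5 mm, labelled pre-meiotic) were set against the 3 labelled stamen S1 (buds of 1 to 1.5 mm, also pre-meiotic), over every feature in their count tables. They are 6 of the 55 libraries of the series, and the 3 libraries of stamen S2 (buds of 2 to 4.5 mm) are shown as the point between. All of them came from males of genotype 'AU9', with no treatment named, and the labels say nothing of separate plants or pooled flowers. The spread behind the p-values may therefore be technical. For edgeR it was estimated over all 55 libraries in 19 groups, not from the stamen libraries alone, unless a fit is said to be restricted. The series was made to follow the alleles of a monodehydroascorbate reductase gene in flowers, and that gene is not analysed here. The other organs used were the pistillode, the aborted pistil of a male flower, at S3 (2 libraries) and S1 (3 libraries), and the pistil of 'AU9' females at S3 (3 libraries) and S1 (3 libraries), from buds of the same sizes.

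A stamen is the pollen-bearing organ of a flower. While it grows, the anther forms its wall layers, with the tapetum that feeds the pollen, around the cells that will enter meiosis. Papaya males carry an X and a Y chromosome, and part of the Y, the male-specific region (MSY), does not recombine with the X. Genes that once were alleles there survive as an X copy and a Y copy, and some genes are left on one chromosome alone.

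The tables list 193 features, 97 located on the X and 96 on the Y, under the authors' own names. In these names the ending _X marks the X copy and _MSY the Y copy of a pair, such as CpXY36_X and CpXY36_MSY. None of the names matched an annotated gene in the reference table, so no function is given to any feature. For the same reason the stamen label could not be checked against anther genes. CpY19_MSY, a Y feature without an X partner, had 594, 489 and 559 counts in the S3 stamens and 594, 453 and 353 counts in the S1 stamens; it served as the check that the libraries are male. The tables hold 64656, 64518 and 69620 counts in the S3 stamens and 93115, 70906 and 56367 counts in the S1 stamens, all from sex-linked features. Levels are given as CPM, counts scaled to a common library total of sex-linked counts, so a CPM here is a share of sex-linked counts and not of the whole transcriptome. Fewer cells of a type and less RNA per cell cannot be told apart in such bulk samples.

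Sequence shared by the copies limits what a Y count means. Fragments that map to several places were counted at each of them, so a pair of near-identical copies repeats the same fragments. Female libraries, which have no Y, show how far this goes. In 21 of the 69 pairs less than 5% of the female counts of a pair were on the Y copy, and these are called separate pairs. In 10 pairs that share was 5 to 25% (partly shared), in 26 pairs over 25% (shared), and 12 pairs had under 100 female counts and were left unclassed. The copies of such pairs are therefore not separate measurements, to an extent that differs between pairs.

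Of the 139 features with enough counts to test, 49 differed between S3 and S1 stamens at an adjusted p under 0.05 (edgeR's quasi-likelihood test, Benjamini-Hochberg adjustment over the 139 features), which is 35.3% of those tested. In S3 stamens 19 features were higher (13.7%) and 30 were lower (21.6%). Features that rose included CpXY4_MSY, PCpX1_X and the CpXY21 and CpXY36 pairs, and the largest falls were in the CpXY40 pair, PCpY1_MSY and CpXY15_MSY. The 49 features stand for 35 pairs or single genes, because in 14 pairs both copies passed, each time in the same direction, while in 13 pairs 1 copy passed. The S3 and S1 libraries did not overlap in 46 of the 49 features, and in 66 of all 139 (47.5%).

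The balance of higher and lower features depended on how the libraries were put on 1 scale. The median log2 change of all tested features was -0.20, and it was -0.08 with scaling factors taken from X-located features alone, where 23 features were higher and 20 lower. Small changes therefore have no firm direction here, while none of the 12 largest rises or 12 largest falls changed sign under any scaling tried.

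**Figure D1:**
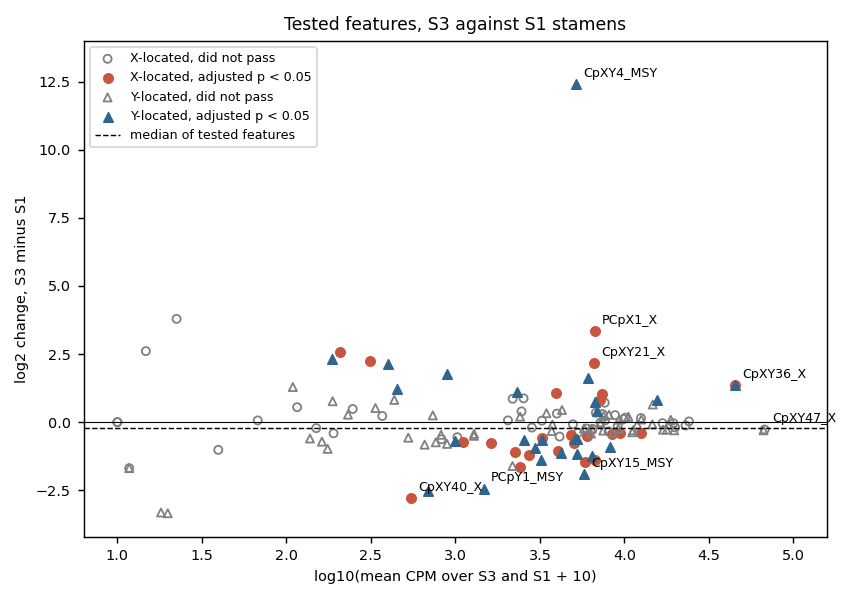
Log2 change of each of the 139 tested features between S3 and S1 stamens (vertical axis) against its level, log10 of the mean CPM over both stages plus 10 (horizontal axis). Circles are X-located and triangles Y-located features, and filled symbols passed an adjusted p under 0.05. CpXY4_MSY stands alone at 12.42, and the dashed line is the median of -0.20.

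CpXY4_MSY was absent from the S1 counts and abundant in S3. It had 800, 221 and 1173 counts in the S3 stamens and 0, 0 and 0 counts in the S1 stamens. All S3 libraries were high and the groups did not overlap. Against a floor of 3 counts over the S1 group it was at least 827-fold higher in S3 stamens (adjusted p = 4.23e-07, edgeR). The S2 stamens had 3, 6 and 0 counts. Its X copy, CpXY4_X, had 0 counts in each of the 9 stamen libraries of S1, S2 and S3, so the rise was seen on the Y copy alone. With 294 exon bases against 588 in the Y copy, CpXY4_X is the shorter of the pair. Later in the series the level moved again: CpXY4_MSY had 0 to 3 counts in S4 stamens, 29 to 1875 in S5 stamens and 602 to 663 in pollen, and in S5 stamens and pollen CpXY4_X was counted too, with 51 to 1721 and 231 to 459 counts. In the 6 S3 and S1 libraries fitted alone the adjusted p was 0.0626 (edgeR). The Y feature spans positions 3699169 to 3729741, and PYCpXY5_MSY lies inside it on the other strand. The pair shares 0 exon bases, but the counts carry no strand.

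PCpX1_X, an X feature without a Y partner, showed the largest rise on the X. Its levels were 10943, 1730 and 23642 CPM in the S3 stamens and 1126, 1355 and 1124 CPM in the S1 stamens. Replicates 1 and 3 of S3 were far above S1, whereas replicate 2 was only just above the highest S1 library. The change was 3.33 on the log2 scale (SE 0.44, adjusted p = 4.91e-08, edgeR). The estimate ran from 2.50 to 3.92 when single libraries were left out, and the call was lost (adjusted p = 0.238, edgeR) when a fit used only the stamen libraries of S3 and S1. S2 stamens had 1138, 1350 and 1591 CPM, close to S1. PCpX2_X, 857 bases away on the X, also passed (log2 change 1.08, SE 0.25, adjusted p = 0.000733, edgeR). PCpX2_X had 4184, 2833 and 9025 CPM in the S3 stamens and 2474, 3028 and 2100 CPM in the S1 stamens, and here the groups overlapped. The same S3 library, replicate 2, was the lowest in both features and in CpXY4_MSY. On the other side of PCpX1_X, 4085 bases away, CpX1 moved the other way, with 1508, 1485 and 1232 CPM in the S3 stamens and 3579, 2904 and 2662 CPM in the S1 stamens, a fall of 1.11 on the log2 scale (SE 0.32, adjusted p = 0.00569, edgeR). PCpX2_X and CpX1 fall outside the naming rule and were named for their place beside PCpX1_X after their values were seen.

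The CpXY36 pair joined a large change to a high level. CpXY36_X had 64892, 69973 and 60200 CPM in the S3 stamens and 25527, 26451 and 23999 CPM in the S1 stamens. The S3 libraries lay close together and far above S1. The change was 1.36 on the log2 scale (SE 0.14, adjusted p = 7.9e-10, edgeR), and CpXY36_MSY, which took 49.4% of the pair's female counts, had nearly the same values (log2 change 1.36). Per kilobase of exon the mean level of CpXY36_X was 55861 CPM in S3 stamens and 21758 CPM in S1 stamens. The S2 stamens stood between, at 44334, 46943 and 36685 CPM, and CpXY36_X was already higher in S2 than in S1 stamens (log2 change 0.75, SE 0.14, adjusted p = 0.000511, edgeR).

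The X copy of CpXY21, a partly shared pair, had 10161, 12540 and 9773 CPM in the S3 stamens and 2611, 2406 and 2233 CPM in the S1 stamens. Its Y copy had 9463, 9616 and 8347 CPM in the S3 stamens and 2884, 3070 and 3031 CPM in the S1 stamens. No library of one stage reached the other in either copy. The log2 change was 2.16 in CpXY21_X (SE 0.32, adjusted p = 5.55e-07, edgeR) and 1.61 in CpXY21_MSY (SE 0.37, adjusted p = 0.000562, edgeR). Both calls stood in all 17 alternatives that could be fitted. In S2 stamens replicate 3, at 2373 CPM for CpXY21_X, was level with S1, whereas replicates 1 and 2 had 4106 and 4843 CPM.

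The other features with the largest rises had lower levels or a wider spread. CpXY18_X had 16, 50 and 37 counts in the S3 stamens and 7, 11 and 6 counts in the S1 stamens (log2 change 2.25, SE 0.77, adjusted p = 0.0204, edgeR), and CpXY18_MSY moved with it (log2 change 2.12, adjusted p = 0.0124, edgeR). S2 stamens did not lie between for this pair, since CpXY18_X had 130, 116 and 6 counts there, and replicate 3 alone was as low as S1. CpY1_MSY, without an X partner, had the same pattern, with 79, 112 and 89 counts in the S3 stamens and 12, 27 and 48 in the S1 stamens (log2 change 1.78, SE 0.60, adjusted p = 0.0174, edgeR), and 125, 248 and 12 in the S2 stamens. The calls of CpXY18_X, CpXY18_MSY and CpY1_MSY were lost without S1 replicate 1, without S3 replicate 2 or in a fit of the 9 stamen libraries of S1 to S3 alone, and that of CpY1_MSY also without S1 replicate 2.

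CpY9_MSY and CpY8_MSY are neighbours on the Y, 220 bases apart, and neither has an X partner. CpY9_MSY had 15, 11 and 37 counts in the S3 stamens and 8, 4 and 2 in the S1 stamens (log2 change 2.33, SE 0.66, adjusted p = 0.00694, edgeR). CpY8_MSY had 31, 35 and 64 counts in the S3 stamens and 26, 17 and 19 in the S1 stamens (log2 change 1.23, SE 0.40, adjusted p = 0.0174, edgeR). The S3 libraries were above S1 in both, but by few counts, and without S3 replicate 3 neither passed (adjusted p = 0.0564 for CpY9_MSY, edgeR). Without S1 replicate 2 the call of CpY8_MSY was lost as well. Both lie inside PXCpXY6_MSY on the opposite strand, with 0 exon bases in common. CpXY19_MSY, in a shared pair, had 4881, 2618 and 1993 CPM in the S3 stamens and 1263, 1839 and 1301 CPM in the S1 stamens (log2 change 1.11, SE 0.35, adjusted p = 0.0127, edgeR). Its call was lost without S3 replicate 1 (adjusted p = 0.155, edgeR) and in the fit of S3 and S1 stamens alone, and its X copies CpXY19a_X and CpXY19b_X had log2 changes of 0.87 and 0.86 that did not pass (adjusted p = 0.0558 and 0.088, edgeR).

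**Figure D2:**
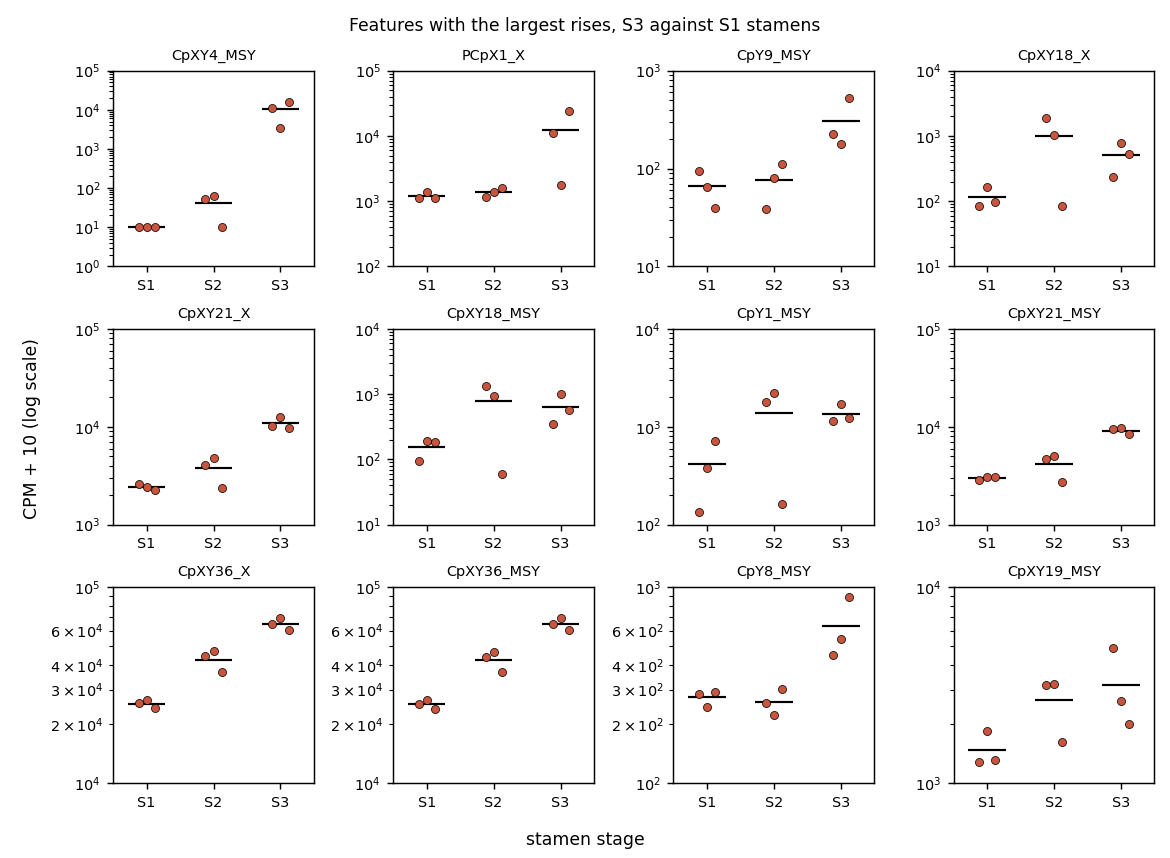
Levels of the 12 named features with the largest rises, as CPM plus 10 on a log axis, in stamens at S1, S2 and S3. Each point is a library and each line a group mean. CpXY36 and CpXY21 copies have tight S3 groups, CpXY4_MSY and PCpX1_X have S3 libraries that differ several-fold, and S2 replicate 3 is low in CpXY18 and CpY1_MSY.

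Of the features that fell, the CpXY40 pair fell furthest. CpXY40_X had 17, 6 and 5 counts in the S3 stamens and 95, 54 and 71 counts in the S1 stamens, and CpXY40_MSY had 21, 11 and 9 counts in the S3 stamens and 105, 82 and 82 in the S1 stamens. Every S3 library was below every S1 library in both copies. CpXY40_X fell by 2.78 on the log2 scale (SE 0.81, adjusted p = 0.00668, edgeR) and CpXY40_MSY by 2.53 (SE 0.75, adjusted p = 0.00694, edgeR). Without S3 replicate 3 the adjusted p of CpXY40_MSY was 0.0501. The S2 stamens, with 54, 71 and 66 counts of CpXY40_X, were near S1, and in S4 stamens CpXY40_X stood at 3231 to 6921 CPM, above the 69.2 to 242 CPM of S3.

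PCpY1_MSY, a Y feature without an X partner, had 24, 32 and 38 counts in the S3 stamens and 181, 192 and 191 counts in the S1 stamens. The groups were far apart, and the S2 stamens, with 131, 171 and 115 counts, lay between. It fell by 2.44 on the log2 scale (SE 0.51, adjusted p = 0.000201, edgeR), and the call stood in all 18 alternatives. It was the one feature that fell among the 13 tested Y features without an X partner, of which 4 rose and 8 did not pass, where over all 139 tested features 13.7% were higher and 21.6% lower.

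CpXY15, a partly shared pair, and CpXY14 fell in both copies. Whether the CpXY15 copies fell by unequal amounts was not tested. CpXY15_MSY had 1466, 3583 and 2159 CPM in the S3 stamens and 9821, 9195 and 8073 CPM in the S1 stamens, a fall of 1.91 on the log2 scale (SE 0.27, adjusted p = 2.78e-07, edgeR). CpXY15_X had 1608, 5267 and 2450 CPM in the S3 stamens and 8916, 9555 and 7157 CPM in the S1 stamens, a fall of 1.46 (SE 0.32, adjusted p = 0.000272, edgeR). S3 replicate 2 was the highest S3 library of both copies, and the call of CpXY15_X was lost when only the S3 and S1 stamens were fitted (adjusted p = 0.0902, edgeR). In CpXY14, a separate pair, the X copy fell more: CpXY14_X had 1267, 1148 and 1066 CPM in the S3 stamens and 4095, 3955 and 2809 CPM in the S1 stamens, a fall of 1.64 (SE 0.19, adjusted p = 2.52e-09, edgeR). CpXY14_MSY had 2177, 1746 and 2104 CPM in the S3 stamens and 4095, 4494 and 3150 CPM in the S1 stamens, a log2 change of -0.96 (SE 0.35, adjusted p = 0.029, edgeR) whose call was lost in 9 of 18 alternatives, among them each fit without 1 library.

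The remaining large falls were CpXY34, CpXY17, CpXY26 and the Y copy of CpXY5. CpXY34_X had 1508, 1945 and 1453 CPM in the S3 stamens and 3990, 3761 and 3667 CPM in the S1 stamens (log2 change -1.22, SE 0.14, adjusted p = 2.52e-09, edgeR). CpXY34_MSY changed by -1.38 and stands near its X copy in level. In CpXY17 the copies changed by -1.38 (X) and -1.26 (Y), and in CpXY26 by -1.07 (X) and -1.12 (Y). All 6 of these features stood in each of their 17 alternatives, with no overlap between S3 and S1 libraries. CpXY5_MSY had 3913, 2542 and 3198 CPM in the S3 stamens and 7274, 8352 and 5989 CPM in the S1 stamens (log2 change -1.16, SE 0.29, adjusted p = 0.00146, edgeR), whereas CpXY5_X, at 4952, 4073 and 4679 CPM in the S3 stamens and 6527, 6485 and 5027 CPM in the S1 stamens, did not pass (log2 change -0.40, adjusted p = 0.0599, edgeR). The call of CpXY5_MSY was lost when shared and partly shared pairs were left out (adjusted p = 0.074, edgeR).

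**Figure D3:**
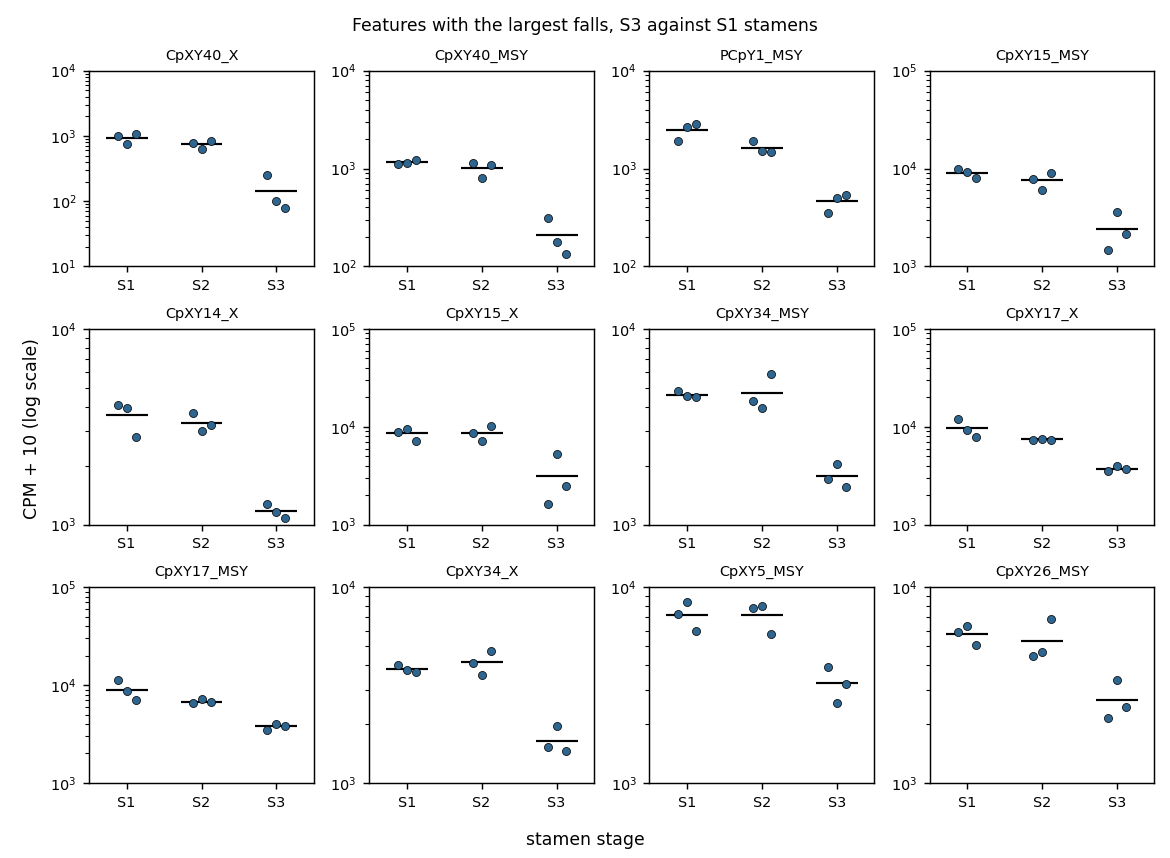
Levels of the 12 named features with the largest falls, as CPM plus 10 on a log axis, in stamens at S1, S2 and S3. Each point is a library and each line a group mean. S2 libraries sit with S1 in most panels, and the S3 libraries sit below both.

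CpXY34_X, CpXY35_X, CpXY36_X and CpXY37_X follow each other on the X, and CpXY35_X and CpXY36_X are 447 bases apart. CpXY34_X fell, CpXY35_X had a log2 change of -0.55 that did not pass (adjusted p = 0.082, edgeR), CpXY36_X rose, and CpXY37_X rose as well (log2 change 1.04, SE 0.26, adjusted p = 0.00134, edgeR). The Y copies stand in the same order and had log2 changes of -1.38, -0.68, 1.36 and 0.80. CpXY35_MSY passed on the Y (adjusted p = 0.0388, edgeR) where its X copy did not. These are shared pairs, so X and Y are not separate measurements of this order. CpXY35 and CpXY37 were named for their position after their values were seen.

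The 10 features with the highest mean CPM were the copies of CpXY36, CpXY47, CpXY12 and CpXY8 with CpXY11_X and CpXY9_X, and apart from CpXY36 none passed. CpXY47_X had 51601, 67952 and 64020 CPM in the S3 stamens and 78392, 78787 and 64484 CPM in the S1 stamens, with a log2 change of -0.27 (SE 0.13, adjusted p = 0.084, edgeR). The scaling factor lowered the CPM of S1 replicate 3, where CpXY47_X was 7.74% of the counts, against 8.04% in S1 replicate 2. CpXY47_X passed in 3 of its 17 alternatives and CpXY47_MSY in 6. The changes of the other 7 such features lay between -0.30 and 0.09. Per kilobase of exon, CpXY12_X stood at 33673 CPM in S3 stamens and 38529 CPM in S1 stamens, below CpXY36_X in S3 and above it in S1.

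Over all tested features 13.7% were higher and 21.6% lower in S3 stamens. By class of pair, 1 of the 40 tested copies of separate pairs was higher in S3 stamens and 6 were lower, with a median log2 change of -0.13. Among the 20 copies of partly shared pairs 2 were higher and 9 lower (median -0.35), and among the 53 copies of shared pairs 7 were higher and 13 lower (median -0.23). Of 8 copies of unclassed pairs 3 were higher and 0 lower, and of 5 X features without a Y partner 2 were higher and 1 lower. Of the X-located features 8 of 67 were higher and 16 lower (median -0.04). Of the Y-located features 11 of 72 were higher and 14 lower (median -0.29). These medians stand beside the -0.20 of all tested features and were not tested. They moved with the processing: with scaling on X-located features the median was 0.0002 over separate pairs, -0.21 over partly shared pairs, -0.096 over shared pairs and -0.15 over Y-located features. The 1 separate copy that rose, CpXY31_X, rests on 1 library, with 65, 1 and 5 counts in the S3 stamens and 5, 3 and 5 in the S1 stamens, and the groups overlapped. Without the shared and partly shared pairs, 12 features passed, 9 higher and 3 lower.

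More features passed in the later of the 2 steps of growth, which does not by itself show that the steps differ. Between S2 and S1 stamens 4 features passed (2.88% of 139), all higher in S2, namely both copies of CpXY36 and of CpXY18. None was lower by edgeR, and 12 features (8.63%) had an unadjusted p under 0.05 in either direction. The 4 fell to 2 without S1 replicate 1 or without S2 replicate 1. Between S3 and S2 stamens 41 passed (29.5%), 14 higher (10.1%) and 27 lower (19.4%). Of the 49 features that differed between S3 and S1, the S2 mean lay between the other means in 36, and it was nearer to S1 on the log2 scale in 42. Being called already sets S1 and S3 apart, which favours an S2 mean between them. Neither count was taken over all 139 features, and neither is a test. A test of the S2 to S3 step minus the S1 to S2 step, added after the data were seen, called 7 features (5.04%), 1 with a positive difference (0.719%) and 6 with a negative one (4.32%). PCpX1_X had the larger gain in the later step (difference 2.97 on the log2 scale), and CpXY34_X (-1.45), CpXY34_MSY (-1.44), CpXY15_MSY (-1.42), CpXY14_X (-1.37) and CpXY24_MSY (-0.90) had the larger fall in it. CpXY18_X (-4.21) gained in the earlier step, where S2 replicate 3 was as low as S1. These comparisons share the S2 libraries, and the count of 7 was 2 without S2 replicate 1 or S3 replicate 3 and 16 without S3 replicate 2. Between replicates, chi-square per degree of freedom was 5.1 to 6.97 in S1 stamens, 3.57 between S2 replicates 1 and 2 but 17.9 and 21.6 between them and S2 replicate 3, and 15.1 to 22.2 in S3 stamens. The median ratio of the highest to the lowest replicate lay between 1.295 and 1.298 at each stage.

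The Y copy's part of a pair can be read within a library, free of the scaling. In 16 separate pairs with at least 20 counts in every stamen library, the log2 ratio of Y to X counts differed between S3 and S1 in 8 (limma, adjusted p under 0.05 over the 16 pairs, 50.0%), with the Y share lower in 5 (31.2%) and higher in 3 (18.8%). In CpXY5 the Y copy took 44.1, 38.4 and 40.6% of the pair's counts in the S3 stamens and 52.7, 56.3 and 54.4% in the S1 stamens (log2 change of the ratio -0.78, SE 0.17, adjusted p = 0.000881, limma). The Y copy held the larger part in each S1 library and the smaller part in each S3 library. In CpXY6 it took 35.9, 33.4 and 34.6% in the S3 stamens and 45.1, 49.2 and 43.1% in the S1 stamens (log2 change -0.67, SE 0.15, adjusted p = 0.000881, limma).

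Other pairs went the other way. In CpXY3 the Y copy took 47.8, 49.2 and 53.3% in the S3 stamens and 37.1, 40.0 and 40.3% in the S1 stamens (log2 change of the ratio 0.64, SE 0.14, adjusted p = 0.000897, limma). CpXY14 had Y shares of 63.2, 60.3 and 66.4% in the S3 stamens and 50.0, 53.2 and 52.9% in the S1 stamens (log2 change 0.67, SE 0.23, adjusted p = 0.0197, limma). In PYCpXY22 the Y share was 57.1, 53.7 and 58.8% in the S3 stamens and 50.1, 50.3 and 52.1% in the S1 stamens (log2 change 0.33, adjusted p = 0.012, limma). None of these 3 pairs overlapped between the stages.

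The ratio also fell in PXCpXY14, PYCpXY5 and CpXY11. PXCpXY14 had Y shares of 50.8, 46.5 and 49.2% in the S3 stamens and 55.9, 58.2 and 56.4% in the S1 stamens (log2 change -0.47, adjusted p = 0.00976, limma). PYCpXY5, with Y shares of 7.68, 7.47 and 8.41% in the S3 stamens and 18.5, 12.2 and 17.0% in the S1 stamens, had the largest change of the ratio (-1.12, SE 0.39, adjusted p = 0.0197, limma). In CpXY11 the change was small (-0.30, adjusted p = 0.0493, limma). The calls of CpXY14 and PYCpXY22 were lost without S3 replicate 3, that of CpXY14 also without S1 replicate 1, that of PYCpXY5 without S1 replicate 1, S1 replicate 3 or S3 replicate 2, and that of CpXY11 without any of 5 libraries. The count of 8 fell to 5 without S1 replicate 1 or without S3 replicate 3.

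**Figure D4:**
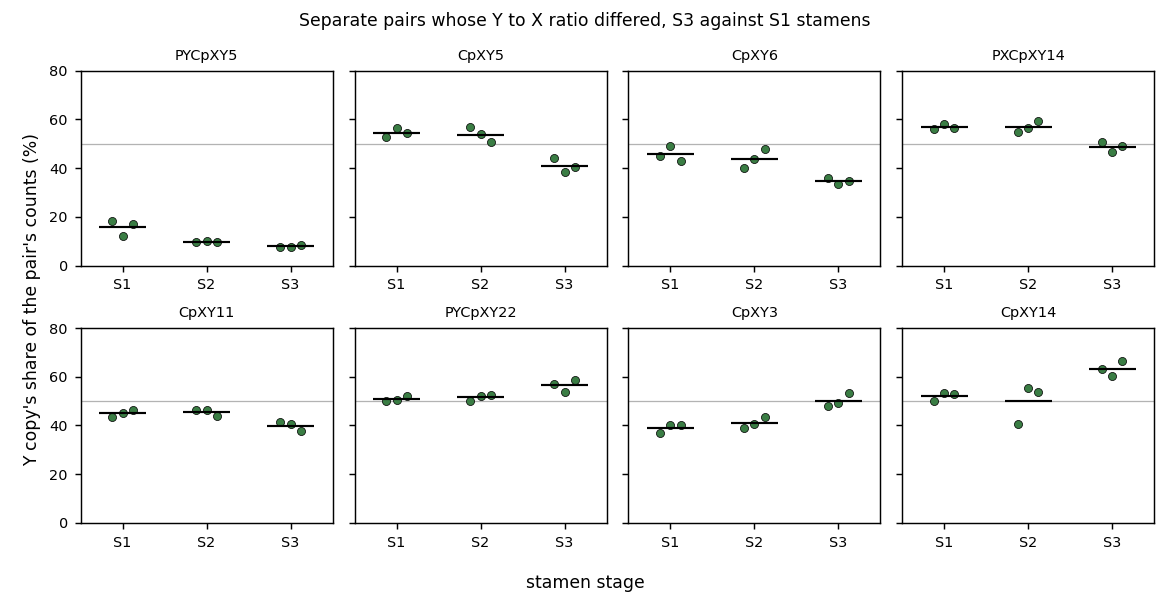
Share of a pair's counts taken by the Y copy (percent) in stamens at S1, S2 and S3, for the 8 separate pairs whose ratio differed between S3 and S1. Each point is a library, each line a group mean, and the grey line marks 50%. The Y share is lower at S3 in PYCpXY5, CpXY5, CpXY6, PXCpXY14 and CpXY11, and higher in PYCpXY22, CpXY3 and CpXY14.

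Over all features the Y-located share of counts was 49.9 ± 0.469% in S3 stamens and 50.8 ± 0.0374% in S1 stamens (SD, n = 3 each), a difference of -0.95 percentage points (two-sided exact permutation test, p = 0.1, the smallest that 3 against 3 allows). The S3 values were 50.0, 50.3 and 49.4% and lay below the S1 values of 50.8, 50.8 and 50.8%.

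The same bud sizes could be compared in the other organs. The change from S1 to S3 in stamens differed from that in pistillodes in 15 of 139 features (10.8%), 5 upward (3.6%) and 10 downward (7.19%), and from that in pistils in 29 (20.9%), 9 upward (6.47%) and 20 downward (14.4%) (edgeR, contrasts of contrasts). Of the 24 features with the largest rises or falls, 12 differed from pistillodes and 14 from pistils. These 24 were picked by their stamen change, which is part of both tests, so high counts were favoured beforehand. Both tests use the same stamen libraries, so they are not independent of each other. PCpX1_X had a log2 change of 3.33 in stamens, 0.21 in pistillodes and -0.45 in pistils. CpXY36_X had 1.36 in stamens, 0.15 in pistillodes and 0.37 in pistils. CpXY21_X had 2.16 in stamens, 0.55 in pistillodes and 0.25 in pistils. The differences of these 3 features passed against both organs. Y copies read in females only what mismapped fragments leave, so the pistil is no reference for the Y copies of separate pairs or for Y features without a partner.

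CpXY40_X had changes of unlike sign. They were -2.78 in stamens, 2.04 in pistillodes and 0.64 in pistils, of which only the stamen change passed. The pistillode value rests on 1 library: CpXY40_X had 297 to 4494 CPM in the S3 pistillodes and 335 to 965 CPM in the S1 pistillodes. Without S3 pistillode replicate 1 the stamen change minus the pistillode change was -1.65 in CpXY40_X and -1.32 in CpXY40_MSY, in place of -4.82 and -4.56. Neither passed then, nor did CpXY21_X, CpXY14_X, CpXY15_X and CpXY34_X. CpXY34_X, CpXY15_MSY, CpXY14_X and CpXY26_MSY had stamen changes of -1.22, -1.91, -1.64 and -1.12, pistillode changes of -0.21, -0.14, -0.41 and 0.46, and pistil changes of -0.01, -0.37, -0.07 and 0.35. CpXY17_X fell in pistillodes too (log2 change -0.76, adjusted p = 0.0255, edgeR), against -1.38 in stamens, and the difference of -0.61 did not pass (adjusted p = 0.161, edgeR). In pistils CpXY17_X changed by 0.12, and there the difference of -1.50 passed (adjusted p = 1.59e-05, edgeR). In their own comparison of S3 and S1, 7 features passed in pistillodes (5.04%), 4 higher (2.88%) and 3 lower (2.16%), and 0 in pistils by edgeR, where 18 (12.9%) had an unadjusted p under 0.05 and DESeq2 called 4.

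**Figure D5:**
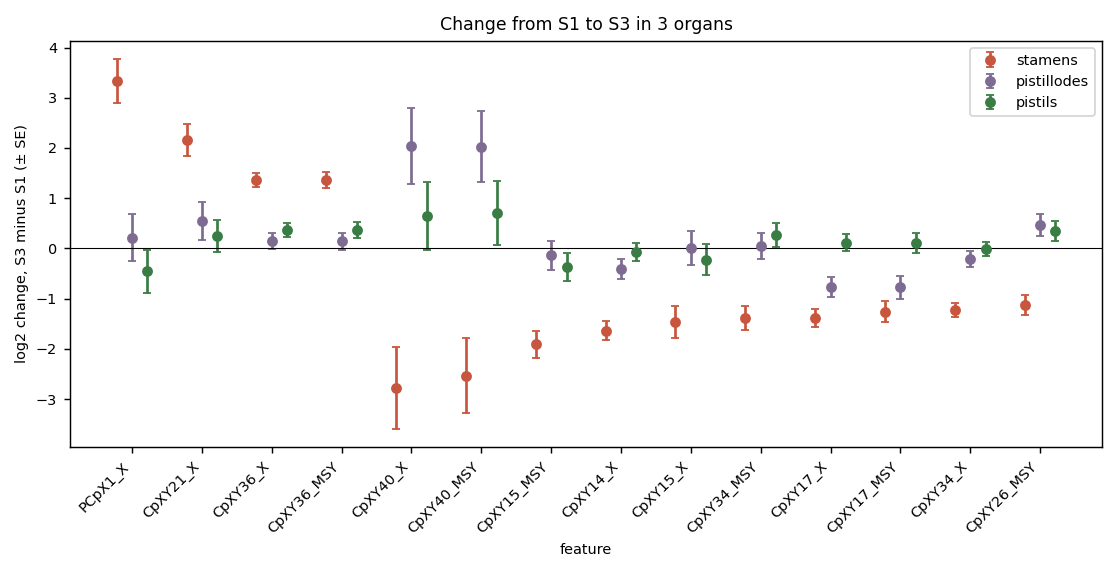
Log2 change from S1 to S3 in stamens, pistillodes and pistils, with the standard error of the fit as bars, for the named features with a large rise or fall whose stamen change differed from that in at least 1 of the other organs. The stamen points stand apart from both other organs for PCpX1_X and CpXY36, and CpXY40 is high in pistillodes with the widest bars.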

How the data were processed

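Each library has a deposited table of counts, made by the authors with featureCounts 2.0.0 per the file headers: fragments over exons summed by gene name, reads mapping to several places counted at each, no strand setting. Per the submitters' processing notes, HISAT2 2.0.5 and Trimmomatic 0.36 were used, and another featureCounts version (1.5.2) is named there. Positions are those of the headers, whose genome build the sources used here do not give. They name an annotation of the sex chromosomes alone, so totals are not sequencing depth.

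For the tests, TMM scaling factors (trimmed mean of M-values) and filterByExpr were applied (139 features kept, 54 left out), and edgeR 4.0.16 (R 4.3.3) fitted all 55 libraries and 19 groups in 1 robust quasi-likelihood model (prior count 0.125), with contrasts between groups. Of the 54 features left out, 26 had no counts in the S3 and S1 stamens. Y to X ratios used log2 of counts plus 0.5 in limma 3.58.1 over the male libraries. Tests are two-sided, with Benjamini-Hochberg adjusted p under 0.05. A floor of 3 counts covers counting error only. Scripts were tested on simulated data in 10 runs. There 6.8% of the S3 against S1 calls and 8.2% of the S3 against S2 calls were false. The simulation gave a feature the same spread in every group and drew the copies of a pair independently. In the real libraries chi-square per degree of freedom was higher in S3 than in S1 stamens, and copies repeat fragments. The simulated rates are therefore not the false share of the real calls. Of simulated 2-fold changes, 74% were found for S3 against S1. The share found was 55% in the test against pistillodes, 47.5% against pistils and 42.5% for the step difference.

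Named features were up to 12 in each direction with the largest change among those that passed, with a mean of at least 10 counts in the higher group and no overlap of libraries, the 10 with the highest CPM, and their partners. The members, lists and rule were chosen with earlier results of these data known. Alternatives covered scaling, filter, DESeq2 1.42.0, libraries fitted, shared pairs left out, replicate block and single libraries left out.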

Additional observations from a re-analysis of the deposited data

Results flagged for a closer look

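These values stand out because the change from S1 to S3 in stamens differed from that in another organ (edgeR, adjusted p under 0.05). Each is the log2 change in stamens minus that in the other organ. Only features under the naming rule are listed, out of 15 that passed against pistillodes and 29 against pistils. Not listed against pistillodes were CpXY37_MSY (0.76) and CpXY24_MSY (-0.76). Those not listed against pistils included CpXY31_X (4.34, resting on 1 S3 stamen library), CpXY37_X (1.35) and CpXY25_MSY (-2.03). Against pistillodes, the differences upward were 3.12 in PCpX1_X, 1.61 in CpXY21_X, 1.21 in CpXY36_X and 1.21 in CpXY36_MSY. The differences downward were -4.82 in CpXY40_X, -4.56 in CpXY40_MSY, -1.77 in CpXY15_MSY, -1.58 in CpXY26_MSY, -1.50 in CpXY26_X, -1.47 in CpXY15_X, -1.43 in CpXY34_MSY, -1.23 in CpXY14_X and -1.01 in CpXY34_X. Without S3 pistillode replicate 1 the values were -1.65 in CpXY40_X and -1.32 in CpXY40_MSY, and neither these nor CpXY21_X, CpXY14_X, CpXY15_X and CpXY34_X passed.

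Against pistils, the differences upward were 3.79 in PCpX1_X, 1.91 in CpXY21_X, 0.99 in CpXY36_X and 0.99 in CpXY36_MSY. The differences downward were -3.41 in CpXY40_X, -3.23 in CpXY40_MSY, -1.66 in CpXY34_MSY, -1.58 in CpXY14_X, -1.54 in CpXY15_MSY, -1.50 in CpXY17_X, -1.47 in CpXY26_MSY, -1.37 in CpXY17_MSY, -1.24 in CpXY15_X, -1.21 in CpXY34_X and -1.12 in CpXY26_X. The Y copies named here belong to shared and partly shared pairs, so their pistil counts include fragments of the X copy.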

How the results depend on the processing

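The count of 49 features ran from 37 to 46 when single libraries were left out, was 59 with DESeq2, and fell to 12 without the shared and partly shared pairs. No single feature's result that passed changed sign. The labels do not say whether the replicate numbers pair the samples. Deviations from the stage mean correlated at 0.10, -0.12 and -0.04 between same-numbered S3 and S1 libraries. Between S1 and S2 they correlated at -0.43, 0.10 and -0.44, and between S2 and S3 at -0.23, 0.04 and -0.02. With 3 libraries per stage these values cannot settle the pairing. The replicate block gave 47 features, and 56 in the 6 stamen libraries alone, against 51 there without it. For S2 against S1 the count of 4 was 2 with at least 10 counts in every library of a group, and 2 to 5 without single libraries. The step difference was called in 4 features with scaling on X-located features, and in 2 to 16 without single libraries. The 8 pairs of differing Y to X ratio became 5 to 8 without single libraries. The Y-located share differed by -1.93 points without CpXY47_X and by -1.90 in separate pairs alone.

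The medians moved most. With scaling on X-located features the median log2 change was -0.078 over all features, -0.15 over Y-located ones, 0.0002 over separate, -0.21 over partly shared and -0.096 over shared pairs. Without a low-count filter these were -0.054, -0.13, 0.0082, -0.19 and -0.082, and 0.031 over X-located features. In the 9 stamen libraries alone they were -0.082, -0.13, 0.0096, -0.20 and -0.087. In the 6 S3 and S1 libraries they were -0.079, -0.12, 0.012, -0.19 and -0.084, and with the replicate block -0.073, -0.12, 0.014, -0.19 and -0.086. Without shared and partly shared pairs the median of all was -0.031. Leaving out single libraries gave -0.14 to -0.049 over all, -0.033 to 0 over X-located, -0.25 to -0.17 over Y-located, -0.20 to -0.011 over separate, -0.34 to -0.24 over partly shared and -0.20 to -0.069 over shared pairs. The cause of these shifts was not tested.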

Other observations

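Beside the 12 largest rises and 12 largest falls, 25 further features passed between S3 and S1 stamens, 7 higher and 18 lower, with log2 changes of -0.40 to -1.11 among those lower. The examples here were chosen after their values were seen. CpXY48_MSY, in a shared pair, had 9350, 8069 and 7821 CPM in the S3 stamens and 4769, 5572 and 4599 CPM in the S1 stamens (log2 change 0.76, SE 0.13, adjusted p = 8.26e-06, edgeR), and CpXY48_X moved with it (log2 change 0.81, adjusted p = 0.0124, edgeR). CpXY24_MSY had 4127, 7395 and 5537 CPM in the S3 stamens and 11737, 11324 and 9153 CPM in the S1 stamens (log2 change -0.92, SE 0.15, adjusted p = 6.72e-06, edgeR). Its X copy CpXY24_X did not pass (log2 change -0.20, adjusted p = 0.416, edgeR). CpXY24 is also a shared pair, with 43.3% of its female counts on the Y copy, and a difference between the copies was not tested.

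Of the S3 libraries, replicate 1 was the nearest to the S1 mean in 4 of the 12 largest falls, replicate 2 in 7 and replicate 3 in 1. In the 12 largest rises these counts were 4, 3 and 5. Both copies of several pairs are among these features, so they are not all separate observations. The counts were not taken over all tested features.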
